A study of Homo sapiens with 21 samples.

Results

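The genes of glycolysis and gluconeogenesis, with a few genes that respond to low oxygen beside them, were described by RNA sequencing across cell lines made resistant to cancer drugs. The 34 members were taken by gene symbol from a named list, through the Ensembl identifiers in the deposited counts. All 34 were found among the 53515 genes of each library. The study compared parental cell lines with lines grown out of them under months of rising drug doses, and asked how resistance and the epithelial to mesenchymal transition go together. HepG2, a liver cancer line, was the parent of the sorafenib-resistant HepG2S1 and HepG2S3. PancVB, from the pancreatic line Panc 03.27, was the parent of PancB1Q and PancB1V, which resist 5-fluorouracil. Among lung lines, HCC4006P1 gave the erlotinib-resistant HCC4006ER, HCC4006P2 the gefitinib-resistant HCC4006GR, and HCC827P the gefitinib-resistant HCC827GR. Among ovarian lines, UWB1.289 gave U10 and U100, resistant to the PARP inhibitor olaparib, and IGROV-1 gave IGROV-1/CDDP, resistant to cisplatin. Replicate libraries, 2 a line, exist for HCC4006P1 and its derivative HCC4006ER and for HepG2 and HepG2S3, and the remaining 13 lines had 1, which makes 21 libraries, 17 lines and 10 pairs over 7 parental lines. The labels do not say whether the 2 libraries of a line are separate cultures, so they may be technical replicates, and every test on them measures the spread between these libraries. That spread was unequal and above counting error. Its chi-square per degree of freedom was 105 in HepG2, 34.5 in HCC4006P1, 9.13 in HepG2S3 and 5.97 in HCC4006ER, while the tests fit a common spread to both lines of a pair. The titles mark both HepG2 libraries repl1 and both HepG2S3 libraries repl2, so that replicate and line may coincide in that pair, and its replicate numbers here follow the letters A and B of the labels. All cells grew in atmospheric oxygen, the HepG2 family in William's E medium and the other lines in RPMI 1640, so medium and family cannot be told apart.

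Counts on genes came to between 11621919 and 36639473 in the 9 parental libraries (median 19498932) and in the 12 resistant ones to between 9851195 and 32008712 (median 19617483). HCC4006P1 replicate 1 had 1 count in all over a stretch of the genome of 8694 genes, which begins on chromosome 7 at position 30620149 (GRCh37) and runs on through chromosomes 8, 9 and X and the mitochondrial genome. Mitochondrial genes held 0% of the counts on genes in that library and 5.46% in replicate 2. Of the genes with at least 50 counts there in replicate 2, 1679 of 1679 had 0 in replicate 1, against 1 of 9777 genes elsewhere. Levels are therefore CPM, a gene's counts scaled to a library total of 1000000 counts on genes placed outside that stretch, in every library, and the 4 members inside it (PGK1, FBP1, CA9 and NDRG1) have no value in HCC4006P1 replicate 1. A gene with 3 counts stands at between 0.1 and 0.388 CPM, depending on the library. Intervals are 95% intervals and, like this floor, cover counting error only. CPM were divided by transcript length where isozymes are compared with each other, while marker lists are sums of plain CPM, in which long transcripts weigh more. The labels give a stranded mRNA kit and mapping by Bowtie and TopHat for each library, as the study's methods do for that kit, while its 3′ end libraries were mapped with another program.

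As background, glycolysis splits glucose into pyruvate, and gluconeogenesis, a function of liver and kidney, runs the pathway back to glucose past its irreversible steps by separate enzymes. Most steps have several isozymes that are encoded by separate genes and differ between tissues. Hypoxia-inducible factor (HIF), a transcription factor stabilised at low oxygen, is known to raise transcription of glucose transporters, most glycolytic enzymes and several genes outside the pathway.

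The lines were first held against marker genes of their tissue. A list of 8 hepatocyte markers summed to 63339 and 44275 CPM in the HepG2 libraries, with 8 of 8 markers at 1 CPM or more. In HepG2S1 these markers summed to 1.03 CPM with 0 of 8 at 1 CPM or more, and ALB was at 0. In HepG2S3 they summed to 42.8 and 49.5 CPM, with 6 and 5 of 8 at 1 CPM or more. The fibroblast list summed to 43.6 and 17.8 CPM in HepG2 and to 717 CPM in HepG2S1 and 435 and 565 CPM in HepG2S3. Most of that sum is DCN (508 CPM in HepG2S1, 363 and 488 in HepG2S3) and LUM (172, 40.2 and 49.8), while COL3A1 was at 0.129, 0 and 0.0400 CPM and PDGFRB, at 17.1 and 2.77 CPM in HepG2, was at 2.59, 9.58 and 7.44 CPM in the same libraries, so the higher sum rests on DCN and LUM. The keratin KRT7 was at 0.770 and 1.78 CPM in HepG2, 3481 in HepG2S1 and 3416 and 3780 in HepG2S3, and also high in lines such as PancVB (3148) and UWB1.289 (2513). The mesenchymal list summed to 20750.3 and 18347 CPM in HepG2, nearly all of it FN1, and to 2115 CPM in HepG2S1 and 2093 and 2039 CPM in HepG2S3, while VIM went from 0.134 and 0.107 CPM in HepG2 to 1548 in HepG2S1 and 1417 and 1339.5 in HepG2S3. The epithelial list summed to 2884 and 3899 CPM in HepG2, 1780.1 in HepG2S1 and 1454 and 1617 in HepG2S3, with CDH1 at 131 and 225 CPM in HepG2 and at 0.388, 0.584 and 0.7196 CPM in the others. The hepatocyte markers thus go against the tissue of the libraries labelled HepG2S1 and HepG2S3, which keep those names here. The part of this in any member's difference from HepG2 was not tested, and in bulk RNA fewer cells of a type and less RNA per cell cannot be told apart. The 4 lung epithelium markers summed to 0.713 and 0.258 CPM in HCC4006P1, with 0 of 4 at 1 CPM or more, against 368 CPM in HCC4006P2, which carries the same line name. In HCC4006ER the fibroblast list summed to 344 and 268 CPM, LUM giving 163 and 121 CPM of it, against 21.6 and 19.2 CPM in HCC4006P1. The epithelial list there went from 7866 and 8329 CPM in HCC4006P1 to 1918 and 2351 CPM in HCC4006ER, with KRT19 from 1991 and 1896 to 3.27 and 1.97 CPM, CDH1 from 549 and 609.6 to 10.7 and 12.9 and KRT7 from 2307 and 2398 to 158 and 227, and the mesenchymal list from 821 and 964 to 3632 and 3895 CPM. In HCC4006GR the lung epithelium list was at 30.3 CPM, with NAPSA at 177 CPM in HCC4006P2 and 1.88 in HCC4006GR, and the mesenchymal list went from 307 to 1077 CPM and the epithelial from 3552 to 2733. HCC827GR stood at 41.3 CPM for lung epithelium, 1696 for mesenchymal and 1209.7 for epithelial markers, HCC827P at 138, 392 and 4292 CPM. The part of these markers in the members' values was not tested either. The leukocyte list summed to 2437 and 1383 CPM in HepG2, nearly all of it LYZ, and to at most 6.40 CPM in the other libraries. IGROV-1 and IGROV-1/CDDP also differed in markers. From IGROV-1 to IGROV-1/CDDP, KRT7 went from 274 to 0.159 CPM, KRT8 from 171 to 39.4, CDH1 from 17.4 to 0.794 and EPCAM from 8.01 to 0.423, while KRT19 went from 119.7 to 499, FN1 from 39.9 to 303 and VIM from 515 to 652 CPM. The list of epithelial markers summed to 519 and 669.6 CPM in these lines and the mesenchymal list to 620.4 and 1088 CPM, in 1 library each. Markers differed in the pancreatic and UWB1.289 families too. From PancVB to PancB1Q and PancB1V, KRT19 went from 838 to 104 and 36.4 CPM. The epithelial list there went from 4463 to 2738 and 2236 CPM, the mesenchymal from 3531 to 3651 and 3840. FN1 stood at 1534 CPM in UWB1.289, 10646 in U10 and 7123 in U100. In the same order VIM was lower in the resistant lines, at 345, 287 and 272 CPM. CDH2 was higher, at 99.9, 204 and 176 CPM, and so was ZEB1, at 2.15, 3.80 and 3.49 CPM. The mesenchymal list gave 1981, 11140 and 7574 CPM in these lines, with FN1 its most abundant gene in each, the epithelial 5486, 2863 and 3874. Their part in the members' values was not tested.

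**Figure D1:**
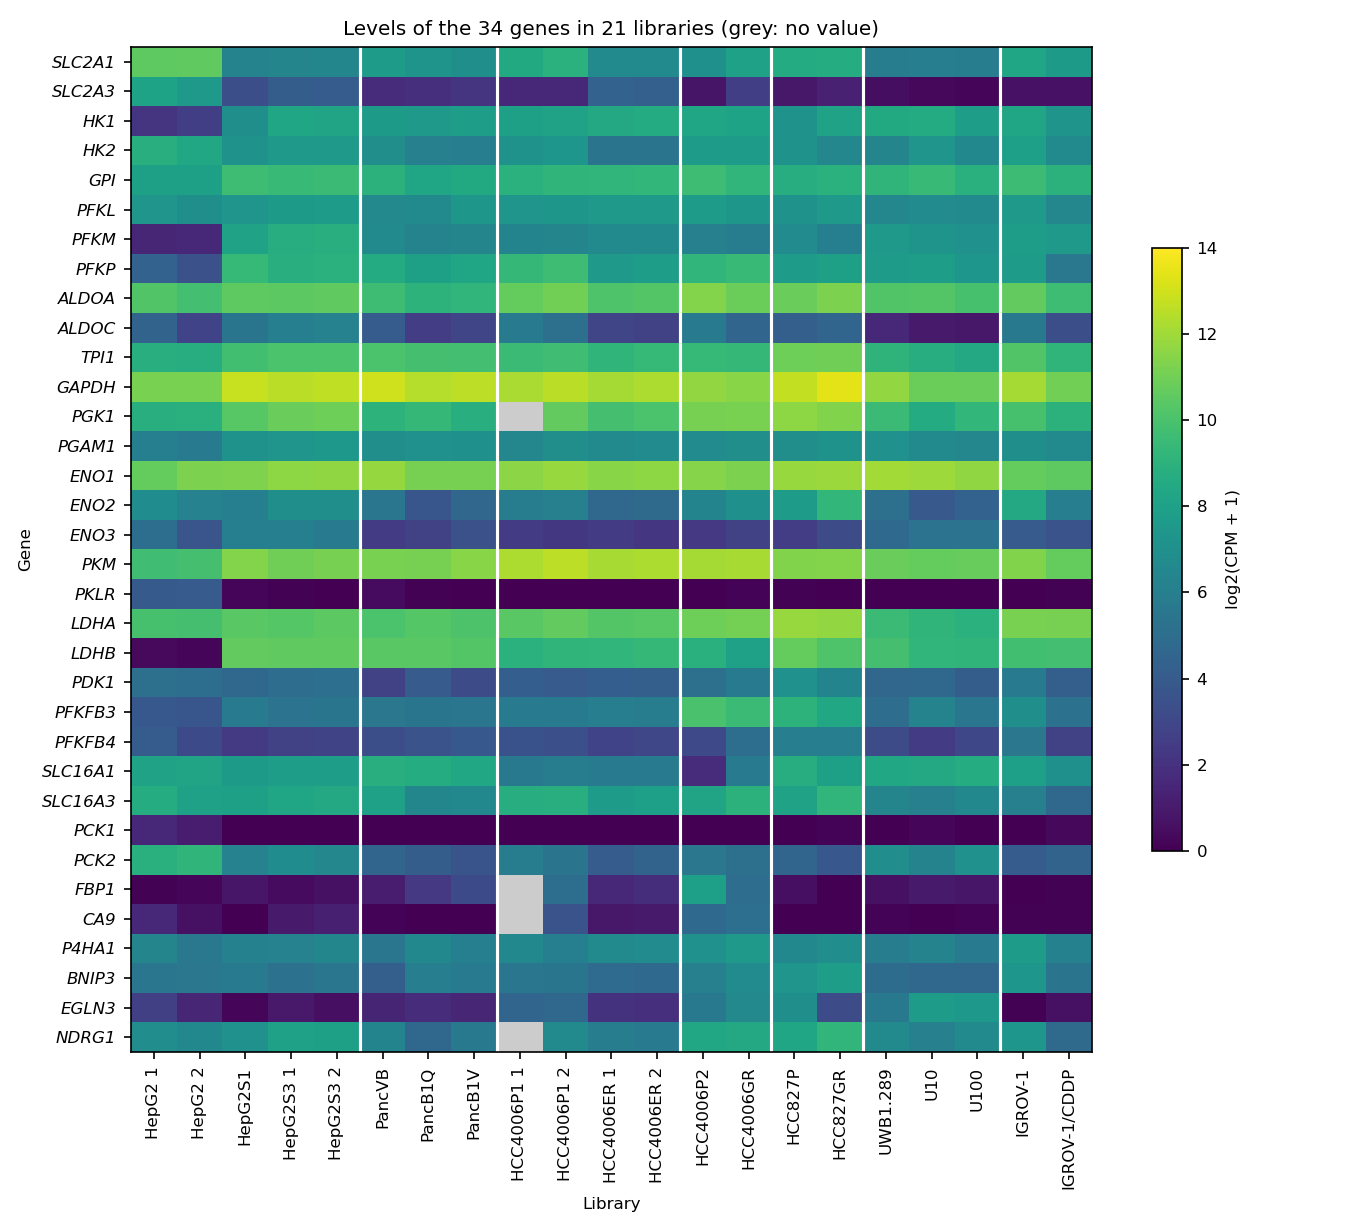
Levels of the 34 members in the 21 libraries on log2(CPM + 1), with libraries ordered by parental line and genes by role. HepG2 stands apart from HepG2S1 and HepG2S3 at LDHB, PFKM, HK1, PFKP, SLC2A1, SLC2A3 and PCK2.

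Promoter sequences are shown for 6 members that were chosen after their values were seen. LDHA and LDHB form the isozyme pair whose log2 ratio varies most over the lines, and HK2, PFKP, ALDOC and ENO2 were lower by more than 1 on the log2 scale in both HCC4006ER and IGROV-1/CDDP. Each window runs from 250 bases before to 50 bases after the gene's start, 5′ to 3′ on the gene's strand, from RefSeq on build GRCh38.p14. The windows are chr12:21657793-21658092 for LDHB (minus strand), chr11:18394313-18394612 for LDHA (plus strand), chr2:74833877-74834176 for HK2 (plus strand), chr10:3067720-3068019 for PFKP (plus strand), chr17:28576846-28577145 for ALDOC (minus strand) and chr12:6914330-6914629 for ENO2 (plus strand). Capitals mark the core letters of the HIF motif, ACGTG or GCGTG, searched on both strands, where a CACGTG counts as 2 overlapping matches.
LDHB: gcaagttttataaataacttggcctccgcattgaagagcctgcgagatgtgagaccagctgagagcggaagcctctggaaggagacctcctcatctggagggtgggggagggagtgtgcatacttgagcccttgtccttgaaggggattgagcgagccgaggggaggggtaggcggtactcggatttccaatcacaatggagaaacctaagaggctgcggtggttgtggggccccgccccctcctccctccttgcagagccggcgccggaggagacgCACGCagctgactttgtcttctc
LDHA: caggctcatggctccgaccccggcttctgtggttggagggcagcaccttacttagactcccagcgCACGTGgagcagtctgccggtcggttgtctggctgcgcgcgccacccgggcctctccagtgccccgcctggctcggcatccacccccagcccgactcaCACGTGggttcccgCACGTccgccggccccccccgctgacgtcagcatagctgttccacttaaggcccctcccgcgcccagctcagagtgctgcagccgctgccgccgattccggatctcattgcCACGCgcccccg
HK2: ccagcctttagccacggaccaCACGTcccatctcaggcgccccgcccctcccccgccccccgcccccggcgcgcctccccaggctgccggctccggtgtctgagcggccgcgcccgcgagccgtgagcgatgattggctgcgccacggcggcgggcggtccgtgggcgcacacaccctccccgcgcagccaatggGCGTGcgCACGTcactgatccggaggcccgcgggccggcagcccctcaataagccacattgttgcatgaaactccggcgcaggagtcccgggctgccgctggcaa
PFKP: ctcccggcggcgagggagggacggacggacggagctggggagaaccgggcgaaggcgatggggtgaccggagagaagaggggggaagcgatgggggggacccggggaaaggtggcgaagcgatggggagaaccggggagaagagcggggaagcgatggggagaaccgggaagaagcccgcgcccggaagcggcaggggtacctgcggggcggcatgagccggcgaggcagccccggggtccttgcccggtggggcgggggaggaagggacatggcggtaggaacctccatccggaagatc
ALDOC: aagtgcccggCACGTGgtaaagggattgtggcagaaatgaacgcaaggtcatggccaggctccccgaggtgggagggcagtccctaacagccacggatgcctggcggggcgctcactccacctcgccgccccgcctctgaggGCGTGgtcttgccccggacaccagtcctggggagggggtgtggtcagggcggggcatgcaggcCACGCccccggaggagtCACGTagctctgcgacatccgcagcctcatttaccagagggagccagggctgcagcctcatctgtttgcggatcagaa
ENO2: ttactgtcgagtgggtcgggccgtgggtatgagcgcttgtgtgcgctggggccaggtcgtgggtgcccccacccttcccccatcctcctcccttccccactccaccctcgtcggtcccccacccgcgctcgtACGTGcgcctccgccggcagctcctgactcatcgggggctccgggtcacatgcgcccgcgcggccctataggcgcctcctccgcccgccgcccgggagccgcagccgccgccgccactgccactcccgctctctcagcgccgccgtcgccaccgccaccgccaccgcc
The LDHA window holds 6 matches, ALDOC 5, HK2 3, LDHB 1, ENO2 1 and PFKP 0. Of the 34 members, 30 were matched to the promoter table, and 21 of these (70.0%) hold at least 1 match, against 13213 of all 27305 promoters of that length (48.4%). At least 2 matches were found in 9 members (30.0%) and in 23.3% of all promoters. The members' windows are also rich in CpG, with a median of 27.5 against 14 over all promoters. A match is a description of these letters, and no binding was measured.

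Glucose enters through transporters, of which SLC2A1 (GLUT1; ENSG00000117394, chromosome 1, 43391024 to 43424564 of GRCh37) serves most cells and SLC2A3 (GLUT3) binds glucose with high affinity. SLC2A1 measured 1502 and 1527 CPM in HepG2, 74.6 in HepG2S1 and 81.4 and 84.8 in HepG2S3. SLC2A1 in the lung lines was at 357 and 483 CPM in HCC4006P1, 97.2 and 102 in HCC4006ER, 127 in HCC4006P2, 256 in HCC4006GR, 388 in HCC827P and 407 in HCC827GR. SLC2A1 in pancreatic and ovarian lines came to 213 CPM in PancVB, 149 in PancB1Q, 122 in PancB1V, 59.2 in UWB1.289, 63.4 in U10, 60.0 in U100, 194 in IGROV-1/CDDP and 303 in IGROV-1. Both HepG2 libraries were the highest of the 21, and UWB1.289, U10 and U100 the lowest. SLC2A1 fell in HepG2S3 against HepG2 with a log2 fold change of -4.51 (SE 0.15, adjusted p 4.8e-05) and in HCC4006ER against HCC4006P1 with -2.17 (SE 0.19, adjusted p 2.2e-04), both beyond the spread of the replicates; values in this order are given for the other members called by that test. SLC2A3 had 281 and 182 CPM in HepG2, 9.44 in HepG2S1 and 16.8 and 16.1 in HepG2S3. For SLC2A3, the lung lines gave 2.08 and 2.06 CPM in HCC4006P1, 19.8 and 18.3 in HCC4006ER, 0.731 in HCC4006P2, 5.14 in HCC4006GR, 0.864 in HCC827P and 1.41 in HCC827GR. SLC2A3 was at 2.39 CPM in PancVB, 2.85 in PancB1Q, 3.23 in PancB1V, 0.452 in UWB1.289, 0.254 in U10, 0.199 in U100, 0.635 in IGROV-1/CDDP and 0.635 in IGROV-1. HepG2 again held the highest values, followed by HCC4006ER and HepG2S3, and 7 of the 17 lines had less than 1 CPM. SLC2A3 fell in HepG2S3 by the same test (-4.14, SE 0.27, adjusted p 2.2e-04) and rose in HCC4006ER (3.12, SE 0.20, adjusted p 6.1e-05), where SLC2A1 fell. In HCC4006GR the change of SLC2A3 from HCC4006P2 was 1.83 (interval 1.25 to 2.28) on log2(CPM + 1), with 1 library a line and no test. Per transcript length SLC2A1 led SLC2A3 in 17 of 17 lines, and the SLC2A3 share of the pair was highest in HepG2S3 (14.9%) and HCC4006ER (14.5%) against a median of 0.670%. The log2 ratio of SLC2A3 to SLC2A1 was higher in the resistant lines of 6 of 7 parents, by a mean of 1.04 (SD 1.69, n = 7), which an exact two-sided sign-flip permutation test did not separate from 0 (p 0.0625, adjusted p 0.492). Without HCC4006P1 and HCC4006ER the mean was 0.42. The HepG2 value averages -0.12 in HepG2S1 and 0.47 in HepG2S3. In the IGROV-1 pair SLC2A3 was equal in both lines and under 1 CPM, so the rise of 0.64 in the ratio there reflects SLC2A1.

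Hexokinases trap glucose by phosphorylation, HK1 (ENSG00000156515, chromosome 10, 71029740 to 71161640) as the form of most tissues and HK2 as the form common in muscle and tumours. HK1 stood at 3.35 and 5.11 CPM in HepG2, 123 in HepG2S1 and 312 and 292 in HepG2S3. Lung-line levels of HK1 were 249 and 263 CPM in HCC4006P1, 351 and 394 in HCC4006ER, 313 in HCC4006P2, 282 in HCC4006GR, 139 in HCC827P and 263 in HCC827GR. HK1 counts in the other lines gave 196 CPM in PancVB, 188 in PancB1Q, 218 in PancB1V, 360.0 in UWB1.289, 397 in U10, 231 in U100, 151 in IGROV-1/CDDP and 295 in IGROV-1. HepG2 stood below every other library and the other 16 lines lay between 123 and 397 CPM. HK1 rose in HepG2S3 (5.84, SE 0.25, adjusted p 7.8e-05) and, by far less, in HCC4006ER (0.46, SE 0.13, adjusted p 0.0242), the second a call lost without either HCC4006ER library and with all genes kept. HK2 measured 441 and 328 CPM in HepG2, 146 in HepG2S1 and 185 and 179 in HepG2S3. HK2 in the lung lines was at 147 and 164 CPM in HCC4006P1, 40.3 and 41.6 in HCC4006ER, 203 in HCC4006P2, 215 in HCC4006GR, 141 in HCC827P and 89.6 in HCC827GR. HK2 in pancreatic and ovarian lines came to 121 CPM in PancVB, 68.3 in PancB1Q, 62.1 in PancB1V, 80.7 in UWB1.289, 154 in U10, 92.6 in U100, 98.6 in IGROV-1/CDDP and 239.8 in IGROV-1. HepG2 held the highest HK2 values and HCC4006ER the lowest, with no overlap between replicates of these lines and their paired lines. HK2 fell in HepG2S3 (-1.40, SE 0.19, adjusted p 0.00204) and in HCC4006ER (-2.01, SE 0.14, adjusted p 8.3e-05). Without replicates, the change in IGROV-1/CDDP was -1.27 (interval -1.35 to -1.20). Per length, HK2 made up 98.3% of the pair in HepG2 and 6.57% in HCC4006ER. HK1 led the pair in the other 16 lines, or in 14 of 17 lines when the length of all exons joined was used. HKDC1, a hexokinase outside the members, was left out of these shares. It measured 357 CPM in IGROV-1/CDDP, 130 in HepG2S1, 83.6 and 68.4 in HepG2 and 0.846 in PancB1Q. The HK2 to HK1 log2 ratio was lower in resistant lines of 5 of 7 parents (mean -1.52, SD 2.43, n = 7; exact sign-flip p 0.109, adjusted p 0.492), with a mean of -0.70 when the HepG2 family was left out.

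After GPI, the isomerase that makes fructose phosphate and that ranged from 250.2 CPM in HepG2 to 816 CPM in HCC4006P2, the phosphofructokinases commit sugar to glycolysis in liver (PFKL), muscle (PFKM) and platelet (PFKP) forms. PFKL had 156 and 123 CPM in HepG2, 158 in HepG2S1 and 197 and 212 in HepG2S3. For PFKL, the lung lines gave 158 and 167 CPM in HCC4006P1, 179.9 and 188 in HCC4006ER, 209 in HCC4006P2, 170.3 in HCC4006GR, 139.9 in HCC827P and 187 in HCC827GR. PFKL was at 94.6 CPM in PancVB, 104 in PancB1Q, 172 in PancB1V, 88.7 in UWB1.289, 106 in U10, 97.6 in U100, 87.7 in IGROV-1/CDDP and 185 in IGROV-1. The PFKL levels differed least of the 34 members, 2.38-fold between the highest line, HCC4006P2, and the lowest, IGROV-1/CDDP. PFKM stood at 1.84 and 2.10 CPM in HepG2, 269.6 in HepG2S1 and 423 and 436 in HepG2S3. Lung-line levels of PFKM were 79.9 and 82.8 CPM in HCC4006P1, 104 and 103 in HCC4006ER, 67.6 in HCC4006P2, 58.8 in HCC4006GR, 105 in HCC827P and 64.4 in HCC827GR. PFKM counts in the other lines gave 102 CPM in PancVB, 76.4 in PancB1Q, 83.3 in PancB1V, 189.6 in UWB1.289, 149 in U10, 133 in U100, 179 in IGROV-1/CDDP and 225 in IGROV-1. HepG2 was far below every other line and HepG2S3 was the highest, so that the HepG2 and HepG2S3 libraries did not overlap. PFKM rose in HepG2S3 with a log2 fold change of 7.44 (SE 0.16, adjusted p 3.2e-05). PFKP measured 20.2 and 10.1 CPM in HepG2, 653 in HepG2S1 and 435 and 497 in HepG2S3. PFKP in the lung lines was at 631 and 804 CPM in HCC4006P1, 182 and 217 in HCC4006ER, 600.5 in HCC4006P2, 701 in HCC4006GR, 217 in HCC827P and 251 in HCC827GR. PFKP in pancreatic and ovarian lines came to 392 CPM in PancVB, 243 in PancB1Q, 299 in PancB1V, 209.9 in UWB1.289, 224 in U10, 161 in U100, 47.1 in IGROV-1/CDDP and 216 in IGROV-1. Low PFKP was seen in HepG2 and IGROV-1/CDDP, and high PFKP in HCC4006P1, HCC4006P2, HCC4006GR and HepG2S1. PFKP rose in HepG2S3 (4.61, SE 0.39, adjusted p 4.9e-04) and fell in HCC4006ER (-1.93, SE 0.18, adjusted p 3.2e-04). The untested change in IGROV-1/CDDP was -2.17 (interval -2.27 to -2.07). Per length, PFKL made up 88.2% of the phosphofructokinase transcripts in HepG2, PFKM led with 54.7% in IGROV-1/CDDP, and PFKP led in the other 15 lines (14 with all exons joined).

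**Figure D2:**
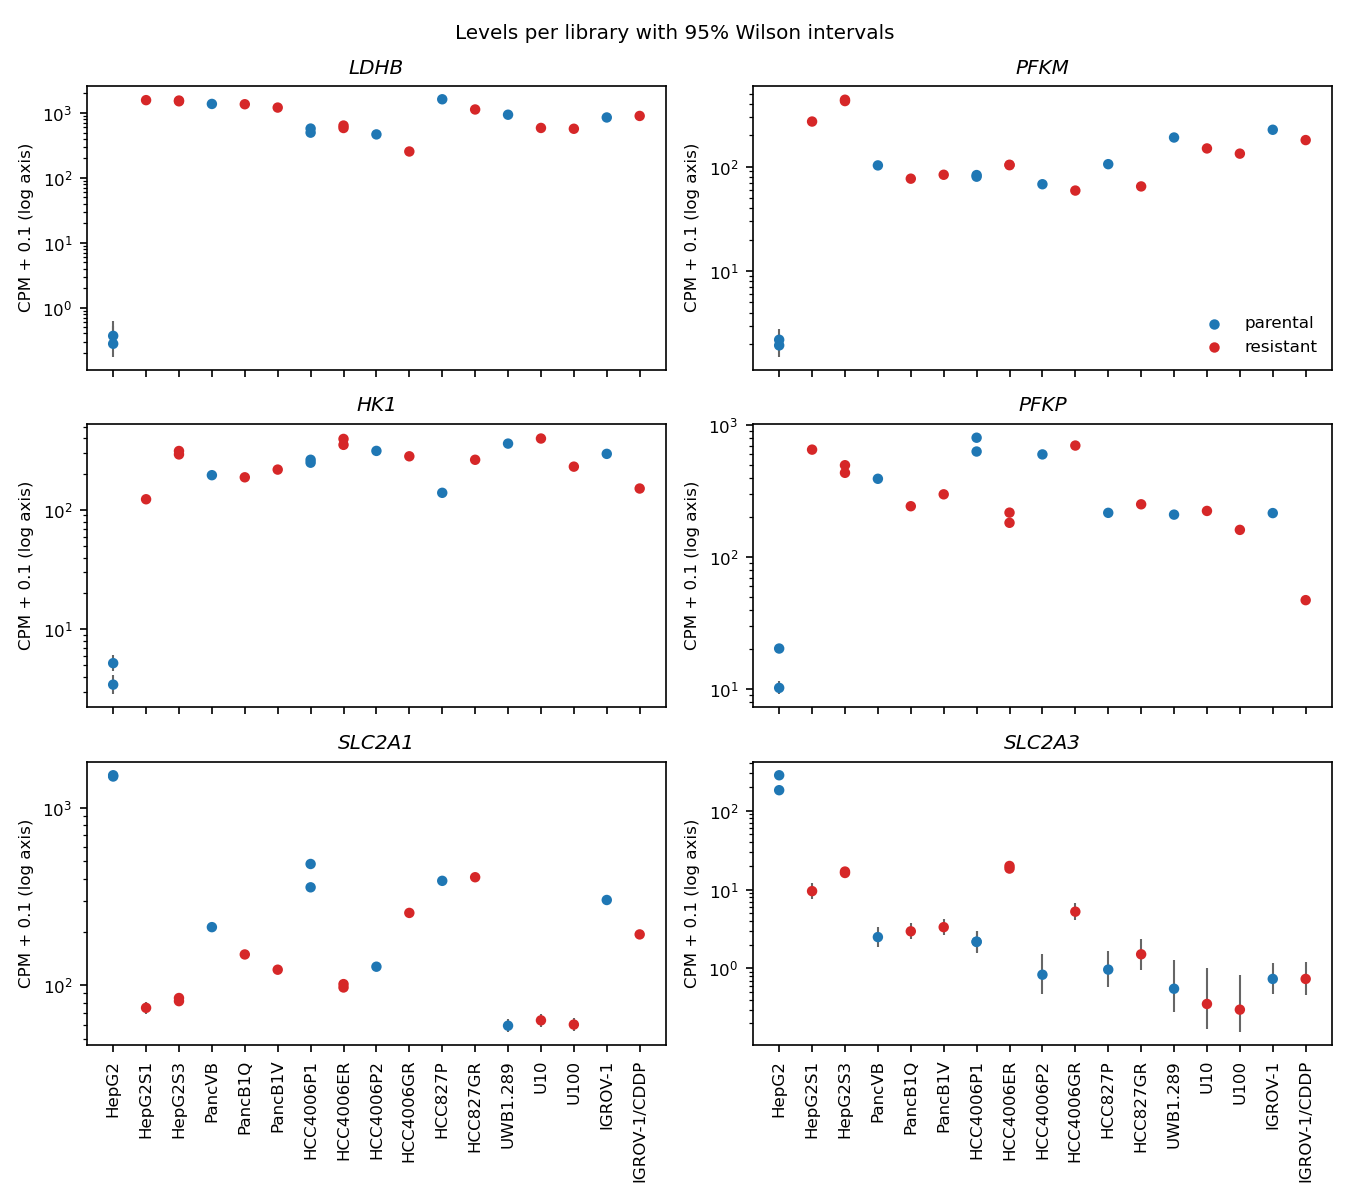
Levels per library of LDHB, PFKM, HK1, PFKP, SLC2A1 and SLC2A3, in CPM on a log axis, with parental and resistant lines marked. LDHB stays between 255 and 1628 CPM in every line other than HepG2, where the libraries stand at 0.268 and 0.178 CPM.

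PFKFB3 and PFKFB4 make the fructose bisphosphate that activates phosphofructokinase. PFKFB3 had 13.3 and 12.3 CPM in HepG2, 55.2 in HepG2S1 and 39.6 and 41.7 in HepG2S3. For PFKFB3, the lung lines gave 55.1 and 52.1 CPM in HCC4006P1, 63.5 and 60.2 in HCC4006ER, 1014 in HCC4006P2, 757 in HCC4006GR, 523 in HCC827P and 342 in HCC827GR. PFKFB3 was at 45.8 CPM in PancVB, 41.8 in PancB1Q, 43.6 in PancB1V, 31.3 in UWB1.289, 77.1 in U10, 44.4 in U100, 36.9 in IGROV-1/CDDP and 126 in IGROV-1. HCC4006P2, HCC4006GR, HCC827P and HCC827GR stood above all other libraries, HCC4006P1 and HCC4006ER among the rest, so the 2 stocks of HCC4006 did not overlap. PFKFB3 rose in HepG2S3 (1.34, SE 0.15, adjusted p 0.00127), and the untested changes were 2.03 (interval 1.86 to 2.19) in HepG2S1, 1.27 (interval 1.07 to 1.47) in U10 and -1.74 (interval -1.86 to -1.62) in IGROV-1/CDDP. PFKFB4 stood at 16.1 and 7.85 CPM in HepG2, 4.14 in HepG2S1 and 5.80 and 6.28 in HepG2S3. Lung-line levels of PFKFB4 were 10.5 and 9.68 CPM in HCC4006P1, 6.03 and 6.75 in HCC4006ER, 7.4 in HCC4006P2, 32.0 in HCC4006GR, 63.5 in HCC827P and 61.8 in HCC827GR. PFKFB4 counts in the other lines gave 9.40 CPM in PancVB, 11.0 in PancB1Q, 13.3 in PancB1V, 8.13 in UWB1.289, 4.44 in U10, 7.28 in U100, 5.71 in IGROV-1/CDDP and 45.8 in IGROV-1. The highest values were in HCC827P, HCC827GR and IGROV-1, and the HepG2 replicates differed by more than the gap between HepG2 replicate 2 and HepG2S3. PFKFB4 fell in HCC4006ER (-0.74, SE 0.19, adjusted p 0.0183) and in HepG2S3 (-1.31, SE 0.39, adjusted p 0.0313), but neither call was kept when single libraries of the resistant line were left out, the first was lost with all genes kept and the second with library totals. Without replicates, PFKFB4 differed by -2.80 (interval -3.04 to -2.55) in IGROV-1/CDDP and by 1.98 (interval 1.66 to 2.28) in HCC4006GR. PFKFB3 was the more abundant per length in 16 of 17 lines, and PFKFB4 held 54.5% in HepG2 and 48.3% there with all exons joined.

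Aldolase splits the sugar, ALDOA as the muscle and general form and ALDOC as the brain form. ALDOA measured 1163 and 886 CPM in HepG2, 1484 in HepG2S1 and 1438 and 1543 in HepG2S3. ALDOA in the lung lines was at 1668 and 2098 CPM in HCC4006P1, 1141 and 1236 in HCC4006ER, 2706 in HCC4006P2, 1850.5 in HCC4006GR, 1808 in HCC827P and 2439 in HCC827GR. ALDOA in pancreatic and ovarian lines came to 809.8 CPM in PancVB, 530.0 in PancB1Q, 593 in PancB1V, 1190.4 in UWB1.289, 1199 in U10, 966 in U100, 818 in IGROV-1/CDDP and 1591 in IGROV-1. HCC4006P2 was the highest library and PancB1Q the lowest, and all lines lay within 5.10-fold. ALDOA fell in HCC4006ER (-0.75, SE 0.16, adjusted p 0.00986), with no overlap of the replicates, but the call was lost with all genes kept, the stretch included. ALDOC had 20.7 and 5.93 CPM in HepG2, 41.8 in HepG2S1 and 66.1 and 71.8 in HepG2S3. For ALDOC, the lung lines gave 51.9 and 35.1 CPM in HCC4006P1, 6.53 and 5.79 in HCC4006ER, 51.9 in HCC4006P2, 22.4 in HCC4006GR, 17.8 in HCC827P and 22.3 in HCC827GR. ALDOC was at 15.6 CPM in PancVB, 4.86 in PancB1Q, 6.57 in PancB1V, 1.92 in UWB1.289, 1.01 in U10, 0.897 in U100, 9.31 in IGROV-1/CDDP and 48.9 in IGROV-1. The HepG2 replicates differed 3.49-fold, U100, U10 and UWB1.289 were lowest, and HepG2S3 highest. ALDOC rose in HepG2S3 (2.04, SE 0.58, adjusted p 0.028) and fell in HCC4006ER (-2.89, SE 0.22, adjusted p 1.3e-04). Changes without a test were -2.28 (interval -2.49 to -2.06) in IGROV-1/CDDP, -1.50 (interval -1.78 to -1.23) in PancB1Q, -1.13 (interval -1.40 to -0.86) in PancB1V and -1.18 (interval -1.38 to -0.97) in HCC4006GR, and 1.58 (interval 1.39 to 1.75) in HepG2S1. ALDOA made up between 95.5% and 99.9% of the pair per length in all 17 lines.

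In the lower part of the pathway, TPI1 interconverts the triose phosphates, GAPDH and PGK1 make the first ATP, and PGAM1 moves the phosphate. TPI1 ranged from 346 CPM in U100 to 2019.7 CPM in HCC827GR, GAPDH from 1796 CPM in U100 to 11077 CPM in HCC827GR, and PGAM1 from 58.7 CPM in HepG2 to 166 CPM in HepG2S3. PGK1 stood at 443 and 471 CPM in HepG2, 1338 in HepG2S1 and 1801 and 1893 in HepG2S3. Lung-line levels of PGK1 were 1614 CPM in HCC4006P1 replicate 2, 953 and 1034 in HCC4006ER, 2209 in HCC4006P2, 2331 in HCC4006GR, 3160.0 in HCC827P and 2592 in HCC827GR. PGK1 counts in the other lines gave 534 CPM in PancVB, 637 in PancB1Q, 450.2 in PancB1V, 739.7 in UWB1.289, 385 in U10, 624 in U100, 501 in IGROV-1/CDDP and 988 in IGROV-1. HCC827P, HCC827GR, HCC4006GR and HCC4006P2 were the highest, and U10, PancB1V and HepG2 the lowest. PGK1 rose in HepG2S3 (1.69, SE 0.14, adjusted p 4.5e-04), as did GPI, PGAM1, GAPDH and TPI1 with log2 fold changes between 0.98 and 1.20. TPI1 fell in HCC4006ER (-0.44, SE 0.15, adjusted p 0.0494), a call that was lost without either HCC4006ER library, with library totals and with all genes kept.

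Enolase follows, ENO1 as the general form, ENO2 as the neuronal and ENO3 as the muscle form. ENO1 measured 1662 and 2372 CPM in HepG2, 2481 in HepG2S1 and 3163 and 3306 in HepG2S3. ENO1 in the lung lines was at 3076 and 3691 CPM in HCC4006P1, 2866 and 3142 in HCC4006ER, 2792 in HCC4006P2, 2408 in HCC4006GR, 3622 in HCC827P and 3812 in HCC827GR. ENO1 in pancreatic and ovarian lines came to 3579 CPM in PancVB, 2254 in PancB1Q, 2203 in PancB1V, 4281 in UWB1.289, 4023 in U10, 3309 in U100, 1490.1 in IGROV-1/CDDP and 1681 in IGROV-1. ENO1 levels of the 17 lines lay within 2.87-fold, with the means of IGROV-1 and IGROV-1/CDDP lowest. ENO2 had 112 and 71.9 CPM in HepG2, 65.0 in HepG2S1 and 123 and 125 in HepG2S3. For ENO2, the lung lines gave 60.7 and 68.6 CPM in HCC4006P1, 24.8 and 27.4 in HCC4006ER, 80.0 in HCC4006P2, 131 in HCC4006GR, 202 in HCC827P and 609 in HCC827GR. ENO2 was at 43.4 CPM in PancVB, 12.6 in PancB1Q, 23.5 in PancB1V, 34.3 in UWB1.289, 14.2 in U10, 20.2 in U100, 63.4 in IGROV-1/CDDP and 344 in IGROV-1. HCC827GR and IGROV-1 were the highest and PancB1Q, U10 and U100 the lowest. ENO2 fell in HCC4006ER (-1.39, SE 0.15, adjusted p 5.8e-04), and its untested changes were -2.42 (interval -2.51 to -2.33) in IGROV-1/CDDP, -1.71 (interval -1.89 to -1.52) in PancB1Q, -1.22 (interval -1.51 to -0.92) in U10 and 1.59 (interval 1.52 to 1.65) in HCC827GR, the last in the opposite direction. ENO3 ranged from 3.93 CPM in HCC4006P2 to 65.3 CPM in HepG2S1. Per length, ENO1 made up at least 85.5% of the enolase transcripts in each of the 17 lines, and the highest ENO2 share was 13.6%, in IGROV-1.

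Pyruvate kinase closes glycolysis, PKM in most tissues and PKLR in liver and red cells. PKM ranged from 886 CPM in HepG2 to 5615 CPM in HCC4006P1 and rose in HepG2S3 (0.92, SE 0.16, adjusted p 0.0051). PKLR stood at 14.7 and 15.4 CPM in HepG2, 0.129 in HepG2S1 and 0.0390 and 0 in HepG2S3. Lung-line levels of PKLR were 0 and 0 CPM in HCC4006P1, 0 and 0 in HCC4006ER, 0 in HCC4006P2, 0.0815 in HCC4006GR, 0.0786 in HCC827P and 0 in HCC827GR. PKLR counts in the other lines gave 0.342 CPM in PancVB, 0.0445 in PancB1Q, 0 in PancB1V, 0 in UWB1.289, 0 in U10, 0 in U100, 0.0529 in IGROV-1/CDDP and 0 in IGROV-1. HepG2 was the only line at 1 CPM or more, and PKLR reached at most 0.342 CPM in the others. In HepG2S3 a single count was found over both libraries, which puts HepG2 762-fold higher (interval 136 to 30142), and a single count in HepG2S1 gives 116-fold (20.8 to 4599). The edgeR test also called PKLR lower in HepG2S3 (adjusted p 1.2e-04), with a fitted fold that depends on the prior count. PKM was 98.7% of the pair per length even in HepG2.

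Lactate dehydrogenase turns pyruvate into lactate and back, with LDHA as the muscle and LDHB (ENSG00000111716, chromosome 12, 21788276 to 21910791) as the heart subunit. LDHB measured 0.268 and 0.178 CPM in HepG2, 1578 in HepG2S1 and 1514 and 1556 in HepG2S3. LDHB in the lung lines was at 498 and 575 CPM in HCC4006P1, 587 and 640.4 in HCC4006ER, 468 in HCC4006P2, 255 in HCC4006GR, 1628 in HCC827P and 1133 in HCC827GR. LDHB in pancreatic and ovarian lines came to 1379 CPM in PancVB, 1364 in PancB1Q, 1212 in PancB1V, 941 in UWB1.289, 588 in U10, 571 in U100, 901 in IGROV-1/CDDP and 853 in IGROV-1. Every line other than HepG2 held LDHB at 255 CPM or more, and the HepG2 libraries had values near the floor. LDHB rose in HepG2S3 with a log2 fold change of 12.39 (SE 0.25, adjusted p 3.2e-05), the highest of the members there. The size of that fitted fold rests on few counts in HepG2 and depends on the prior count. LDHA had 965 and 935 CPM in HepG2, 1389 in HepG2S1 and 1287 and 1437 in HepG2S3. For LDHA, the lung lines gave 1345 and 1569 CPM in HCC4006P1, 1223 and 1337 in HCC4006ER, 1888 in HCC4006P2, 2174 in HCC4006GR, 3721 in HCC827P and 3418 in HCC827GR. LDHA was at 1064 CPM in PancVB, 1271 in PancB1Q, 1102 in PancB1V, 742 in UWB1.289, 573 in U10, 492 in U100, 2226 in IGROV-1/CDDP and 2324 in IGROV-1. HCC827P and HCC827GR were the highest and UWB1.289, U10 and U100 the lowest, and no pair differed by more than 1 on the log2 scale. Per length LDHB made up 0.0403% of the pair in HepG2, 66.1% in HepG2S1, 66.0% in HepG2S3, 69.0% in PancVB and 16.8% in HCC4006GR. The median share was 45.2% over 17 lines, and 44.1% over the 14 lines outside the HepG2 family. LDHA led in 9 lines and LDHB in 8. The log2 ratio of LDHB to LDHA changed by a mean of 1.19 over 7 parents (SD 3.81; exact sign-flip p 0.859) and by -0.24 without the HepG2 family, so its sign rests on that family. The windows of LDHA and LDHB printed above hold 6 and 1 HIF motif matches.

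**Figure D3:**
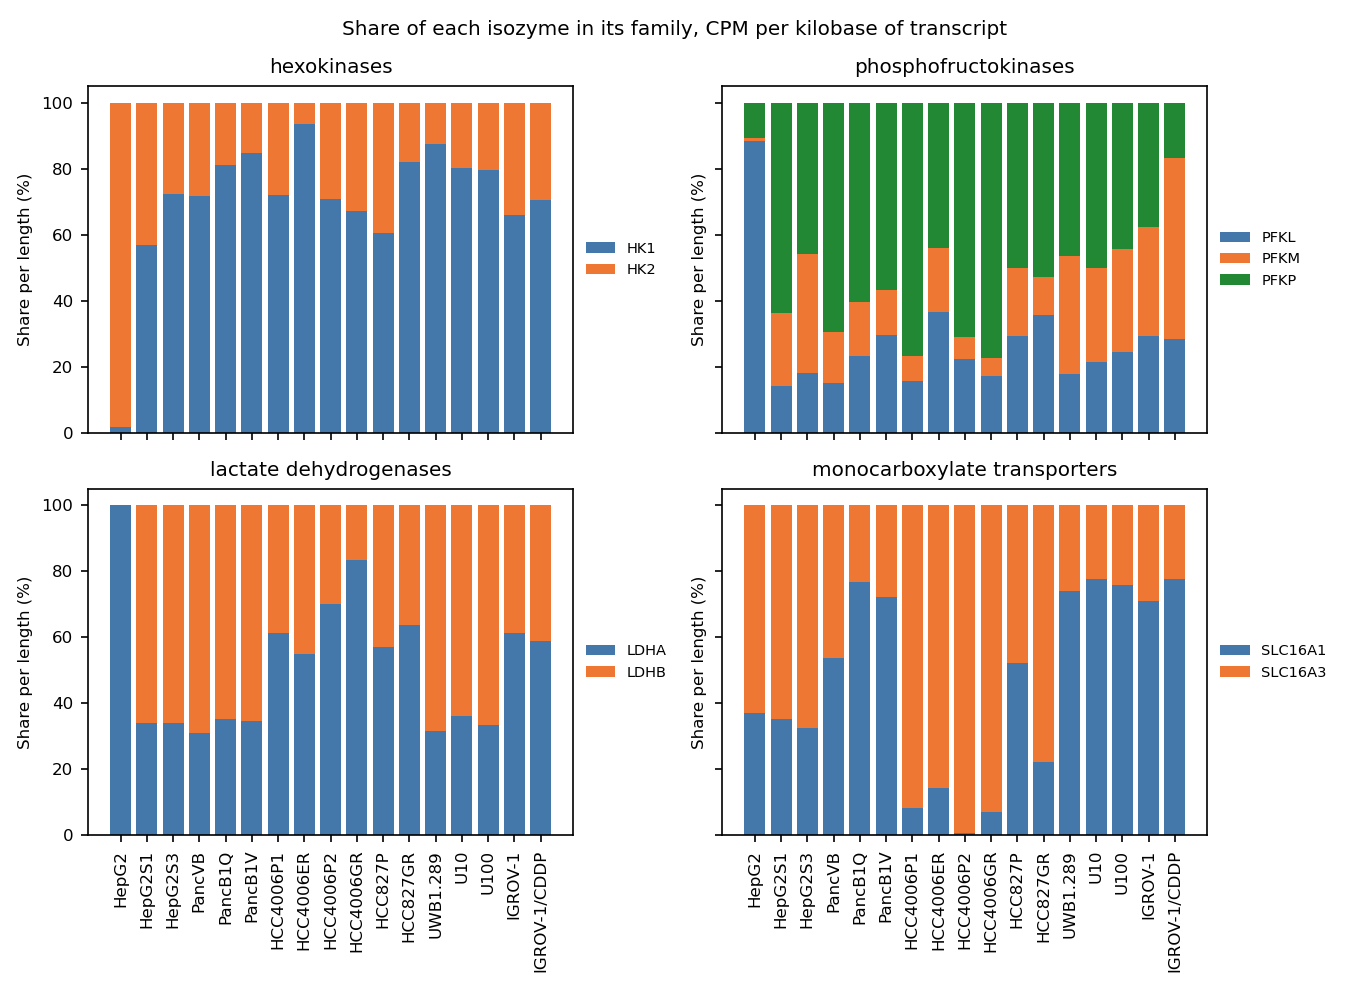
Share of each isozyme among the members of its family per line, in percent of CPM per transcript length, for the 17 lines. HepG2 departs from the other lines at hexokinase, phosphofructokinase and lactate dehydrogenase.

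PDK1 holds pyruvate back from oxidation in the mitochondrion, and the monocarboxylate transporters SLC16A1 (MCT1) and SLC16A3 (MCT4) move lactate. PDK1 stood at 35.6 and 32.5 CPM in HepG2, 24.8 in HepG2S1 and 31.1 and 33.2 in HepG2S3. Lung-line levels of PDK1 were 17.2 and 15.4 CPM in HCC4006P1, 17.2 and 18.2 in HCC4006ER, 35.2 in HCC4006P2, 53.6 in HCC4006GR, 137 in HCC827P and 78.7 in HCC827GR. PDK1 counts in the other lines gave 5.70 CPM in PancVB, 15.2 in PancB1Q, 8.31 in PancB1V, 23.9 in UWB1.289, 25.7 in U10, 16.7 in U100, 17.6 in IGROV-1/CDDP and 53.5 in IGROV-1. HCC827P and HCC827GR were highest, PancVB lowest, and HCC4006P1 and HCC4006ER overlapped. Untested changes were 1.28 (interval 0.99 to 1.55) in PancB1Q and -1.55 (interval -1.72 to -1.38) in IGROV-1/CDDP. SLC16A1 measured 268 and 289 CPM in HepG2, 196 in HepG2S1 and 221 and 228 in HepG2S3. SLC16A1 in the lung lines was at 50.4 and 59.4 CPM in HCC4006P1, 54.1 and 54.8 in HCC4006ER, 2.47 in HCC4006P2, 55.1 in HCC4006GR, 419.8 in HCC827P and 243 in HCC827GR. SLC16A1 in pancreatic and ovarian lines came to 430.1 CPM in PancVB, 407 in PancB1Q, 336 in PancB1V, 329 in UWB1.289, 346 in U10, 411 in U100, 130.0 in IGROV-1/CDDP and 241 in IGROV-1. HCC4006P2 was the only line under 50 CPM. Against it HCC4006GR differed by 4.02 (interval 3.60 to 4.40), while HCC4006P1 and HCC4006ER overlapped. In HepG2S3 SLC16A1 fell (-0.64, SE 0.12, adjusted p 0.00625), a call lost with library totals and without either HepG2S3 library. SLC16A3 had 402 and 257 CPM in HepG2, 249 in HepG2S1 and 305 and 345 in HepG2S3. For SLC16A3, the lung lines gave 416 and 438 CPM in HCC4006P1, 216 and 234 in HCC4006ER, 284 in HCC4006P2, 517 in HCC4006GR, 266 in HCC827P and 586 in HCC827GR. SLC16A3 was at 258 CPM in PancVB, 85.1 in PancB1Q, 90.1 in PancB1V, 80.7 in UWB1.289, 68.6 in U10, 90.3 in U100, 25.9 in IGROV-1/CDDP and 68.6 in IGROV-1. IGROV-1/CDDP was the lowest and HCC827GR the highest, and HepG2 spanned the HepG2S3 values. SLC16A3 fell in HCC4006ER (-1.0, SE 0.12, adjusted p 9.1e-04). Without replicates its changes were -1.59 (interval -1.66 to -1.51) in PancB1Q, -1.51 (interval -1.59 to -1.43) in PancB1V, -1.37 (interval -1.52 to -1.23) in IGROV-1/CDDP and 1.14 (interval 1.08 to 1.19) in HCC827GR. SLC16A3 was 99.4% of the pair per length in HCC4006P2 and led in 8 of 17 lines, or 5 with all exons joined.

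Gluconeogenesis bypasses pyruvate kinase through PCK1, the cytosolic, and PCK2, the mitochondrial carboxykinase, and phosphofructokinase through FBP1. PCK1 stood at 1.97 and 1.14 CPM in HepG2, 0 in HepG2S1 and 0 and 0 in HepG2S3. Lung-line levels of PCK1 were 0 and 0 CPM in HCC4006P1, 0 and 0 in HCC4006ER, 0 in HCC4006P2, 0 in HCC4006GR, 0 in HCC827P and 0.0880 in HCC827GR. PCK1 counts in the other lines gave 0 CPM in PancVB, 0 in PancB1Q, 0 in PancB1V, 0 in UWB1.289, 0.127 in U10, 0 in U100, 0.212 in IGROV-1/CDDP and 0 in IGROV-1. Only HepG2 reached 1 CPM, and the 3 libraries labelled HepG2S1 and HepG2S3 had 0 counts. Against the floor of 3 counts per library, HepG2 was at least 13.1-fold higher than HepG2S3 and at least 4.01-fold higher than HepG2S1, and edgeR called PCK1 lower in HepG2S3 (adjusted p 0.00259). PCK2 measured 481 and 575 CPM in HepG2, 73.3 in HepG2S1 and 112 and 89.0 in HepG2S3. PCK2 in the lung lines was at 58.4 and 41.3 CPM in HCC4006P1, 15.7 and 21.3 in HCC4006ER, 45.2 in HCC4006P2, 34.8 in HCC4006GR, 22.7 in HCC827P and 12.8 in HCC827GR. PCK2 in pancreatic and ovarian lines came to 22.3 CPM in PancVB, 16.6 in PancB1Q, 11.4 in PancB1V, 113 in UWB1.289, 75.8 in U10, 134 in U100, 20.8 in IGROV-1/CDDP and 15.8 in IGROV-1. HepG2 was above every other library and PancB1V the lowest. PCK2 fell in HepG2S3 (-2.72, SE 0.18, adjusted p 2.2e-04) and in HCC4006ER (-1.50, SE 0.22, adjusted p 0.00201). FBP1 had 0.0669 and 0.142 CPM in HepG2, 0.776 in HepG2S1 and 0.312 and 0.560 in HepG2S3. For FBP1, the lung lines gave 31.7 CPM in HCC4006P1 replicate 2, 1.95 and 2.55 in HCC4006ER, 237 in HCC4006P2, 30.8 in HCC4006GR, 0.471 in HCC827P and 0 in HCC827GR. FBP1 was at 1.08 CPM in PancVB, 3.96 in PancB1Q, 7.74 in PancB1V, 0.565 in UWB1.289, 1.01 in U10, 0.798 in U100, 0.0529 in IGROV-1/CDDP and 0 in IGROV-1. HCC4006P2 stood far above the rest, and 9 of 17 lines were under 1 CPM. FBP1 was lower in HCC4006GR (-2.90, interval -3.06 to -2.75) and in HCC4006ER (-3.33, interval -3.59 to -3.07, against HCC4006P1 replicate 2 alone), and higher in PancB1Q (1.25, interval 0.82 to 1.64) and PancB1V (2.07, interval 1.65 to 2.43), without a test in HCC4006GR, PancB1Q and PancB1V. In an added fit with HCC4006P1 by its second library alone, edgeR called FBP1 lower in HCC4006ER (-3.96, SE 0.19, adjusted p 2.8e-90), where the spread comes from the HCC4006ER libraries only.

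The last 5 members are known as HIF-responsive genes. CA9, a carbonic anhydrase, ranged from 0 CPM in several lines to 33.8 CPM in HCC4006GR, and P4HA1, a collagen prolyl hydroxylase subunit, from 44.2 CPM in PancVB to 203 CPM in IGROV-1. EGLN3 encodes an oxygen-sensing hydroxylase of HIF. EGLN3 stood at 5.39 and 1.85 CPM in HepG2, 0.129 in HepG2S1 and 0.935 and 0.480 in HepG2S3. Lung-line levels of EGLN3 were 22.8 and 25.0 CPM in HCC4006P1, 3.20 and 2.67 in HCC4006ER, 49.6 in HCC4006P2, 96.7 in HCC4006GR, 125 in HCC827P and 8.45 in HCC827GR. EGLN3 counts in the other lines gave 1.71 CPM in PancVB, 2.45 in PancB1Q, 1.85 in PancB1V, 49.1 in UWB1.289, 207 in U10, 173 in U100, 0.529 in IGROV-1/CDDP and 0.0488 in IGROV-1. U10 and U100 were the highest lines, and HepG2S3 lay below both HepG2 replicates, which themselves differed 2.92-fold. EGLN3 fell in HepG2S3 (-2.68, SE 0.66, adjusted p 0.0177), a call lost without HepG2S3 replicate 2, and in HCC4006ER (-3.10, SE 0.20, adjusted p 6.6e-05). Its untested changes were -2.03 (interval -2.25 to -1.40) in HepG2S1, -3.74 (interval -4.0 to -3.47) in HCC827GR, 2.05 (interval 1.90 to 2.20) in U10 and 1.79 (interval 1.65 to 1.94) in U100. BNIP3 acts in the removal of mitochondria. BNIP3 measured 44.3 and 46.6 CPM in HepG2, 51.6 in HepG2S1 and 38.3 and 43.9 in HepG2S3. BNIP3 in the lung lines was at 44.4 and 42.3 CPM in HCC4006P1, 28.8 and 26.7 in HCC4006ER, 66.6 in HCC4006P2, 109 in HCC4006GR, 159.7 in HCC827P and 221 in HCC827GR. BNIP3 in pancreatic and ovarian lines came to 17.7 CPM in PancVB, 61.7 in PancB1Q, 56.5 in PancB1V, 30.1 in UWB1.289, 24.2 in U10, 23.8 in U100, 41.6 in IGROV-1/CDDP and 162 in IGROV-1. HCC827GR, IGROV-1 and HCC827P were highest and PancVB lowest. BNIP3 fell in HCC4006ER (-0.72, SE 0.13, adjusted p 0.00481), a call lost without HCC4006ER replicate 2, and in HepG2S3 (-0.47, SE 0.15, adjusted p 0.0373), lost with DESeq2, with library totals, without the filter on low counts, with the replicate block and without either HepG2S3 library. In PancB1Q, PancB1V and IGROV-1/CDDP its changes were 1.75 (interval 1.58 to 1.92), 1.62 (interval 1.45 to 1.80) and -1.93 (interval -2.04 to -1.82). NDRG1 is a stress-responsive gene. NDRG1 had 115 and 91.6 CPM in HepG2, 134 in HepG2S1 and 255 and 251 in HepG2S3. For NDRG1, the lung lines gave 102 CPM in HCC4006P1 replicate 2, 60.7 and 55.9 in HCC4006ER, 320.5 in HCC4006P2, 353 in HCC4006GR, 298 in HCC827P and 585 in HCC827GR. NDRG1 was at 78.6 CPM in PancVB, 24.8 in PancB1Q, 49.7 in PancB1V, 103 in UWB1.289, 68.3 in U10, 105 in U100, 27.9 in IGROV-1/CDDP and 165 in IGROV-1. HCC827GR was the highest and PancB1Q and IGROV-1/CDDP the lowest. NDRG1 rose in HepG2S3 (0.96, SE 0.16, adjusted p 0.00461), and its untested changes were -1.63 (interval -1.76 to -1.49) in PancB1Q and -2.52 (interval -2.65 to -2.39) in IGROV-1/CDDP.

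Whether the members as a group moved was read against all genes. In HepG2S3 against HepG2, 33 of the 34 members passed the filter on low counts (FBP1 did not), and edgeR's quasi-likelihood test called 13 higher (39.4%) and 10 lower (30.3%) at an adjusted p under 0.05. Over all 15773 genes tested, 31.8% were called higher and 32.6% lower, so the members' shares are near the background. The median log2 fold change was 0.21 over the members tested and -0.01 over all genes. In HCC4006ER against HCC4006P1, 28 members were tested, and 2 (7.14%) were higher and 12 (42.9%) lower, beside 24.1% higher and 24.9% lower of 12791 genes. The members' median there was -0.28 and that of all genes 0.01. Deviations of same-numbered libraries in this pair correlated at 0.414 across genes. A block for replicate added calls for P4HA1 and PKM, but called 0 members and 0 genes once the genes of the stretch were kept. The 6 members not tested in this pair were the 4 of that stretch and PKLR and PCK1. In the added fit with HCC4006P1 by its second library alone, the 4 had log2 fold changes of -0.85 (PGK1), -3.96 (FBP1), -3.67 (CA9) and -0.96 (NDRG1). The difference between both pairs' changes was tested by an interaction that was added after the data were seen, and it passed for 17 of 30 members, 3 (10%) higher and 14 (46.7%) lower in the HCC4006 pair, beside 27.7% higher and 28.2% lower of 14479 genes.

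**Figure D4:**
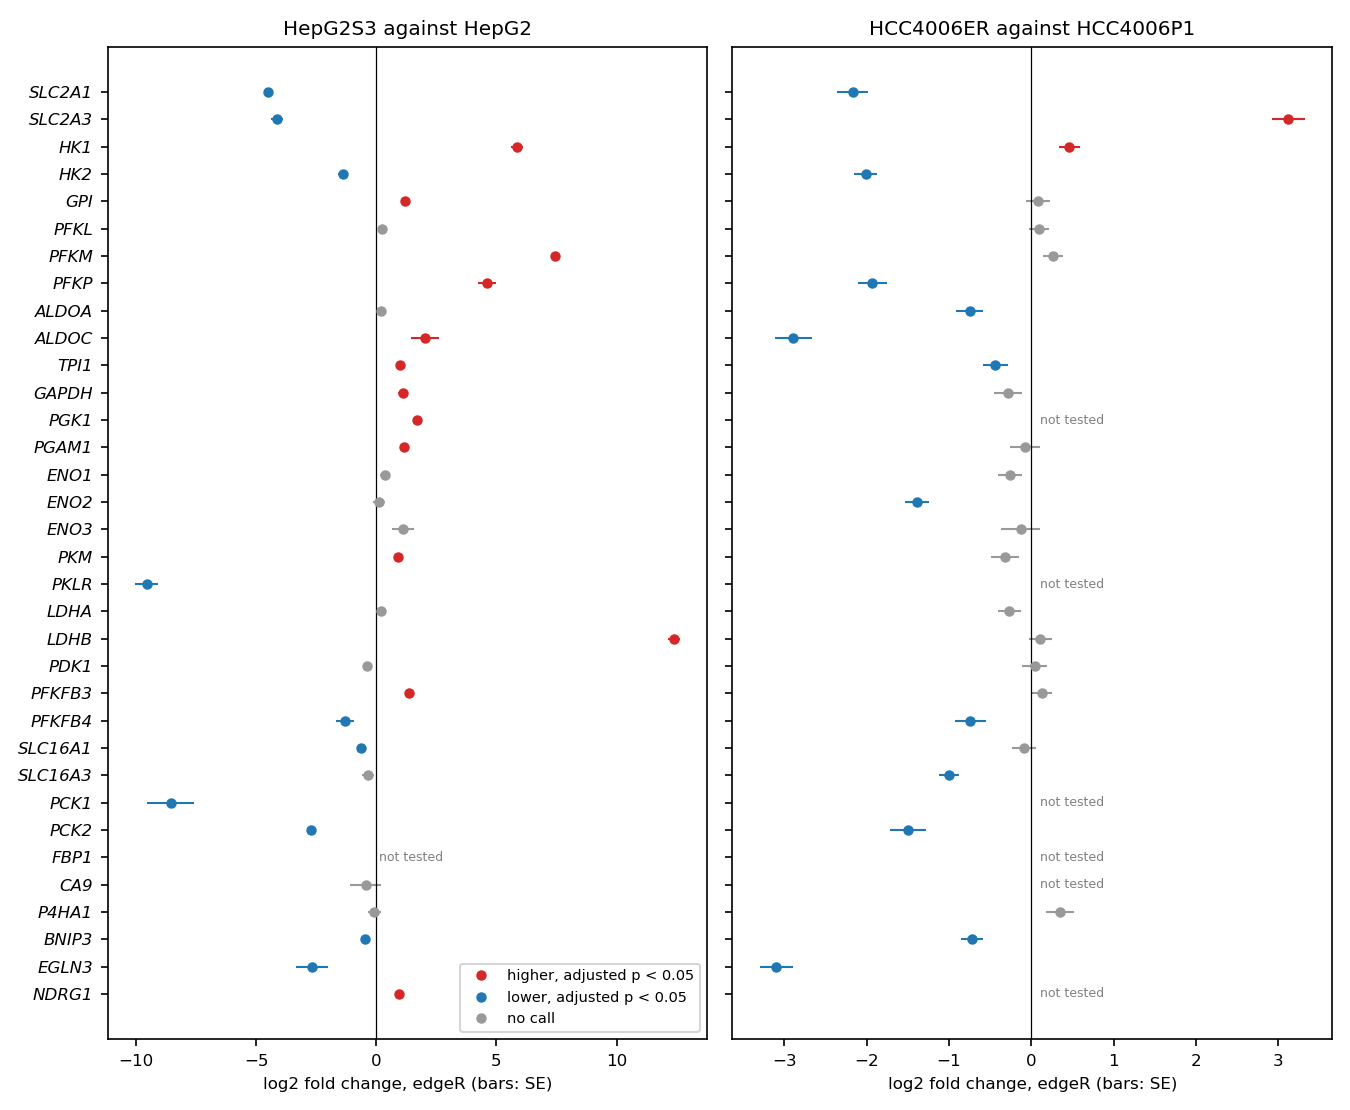
Log2 fold changes of the members with their SE in the 2 replicated comparisons, HepG2S3 against HepG2 and HCC4006ER against HCC4006P1. Each SE was derived from the fold change and the test statistic. SLC2A3 fell in HepG2S3 and rose in HCC4006ER, while PFKP and ALDOC rose in HepG2S3 and fell in HCC4006ER.

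Over the 7 parental lines, with resistant and parental counts summed per parent and the parent as a block, 32 members were tested. edgeR called 0 members, with 0% and 0% of 18254 genes called higher and lower. At an unadjusted p under 0.05 there were 848 genes, HK2 among them as the single member (log2 fold change -0.80, SE 0.32, adjusted p 0.993). DESeq2 called 113 genes in that design, 90 higher and 23 lower, with 0 members. Without the HepG2 family edgeR again called 0 genes, with 1192 at an unadjusted p under 0.05. HCC4006P1 and HCC4006P2, which carry the same line name, are counted apart among the 7. Counted as 1 parental line, they left edgeR with 0 genes called and 761 at an unadjusted p under 0.05. All 9 isozyme log2 ratios spanned more than 3 over the 17 lines, from 4.80 for ALDOC to ALDOA up to 9.98 for LDHB to LDHA. None of the 9 passed the exact sign-flip permutation test over 7 parents, whose smallest possible p is 0.0156, and their adjusted p ran from 0.492 to 0.953.

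Change per pair was then counted on log2(CPM + 1), beyond 1 in either direction, over members with at least 1 CPM in either line, beside the same share of all genes. In HepG2S1, 13 of 33 members were higher and 9 lower, where 26.9% and 18.2% of all genes were. The 13 were LDHB (10.34), PFKM (6.51), PFKP (5.34), HK1 (4.57), PFKFB3 (2.03), GPI (1.68), GAPDH (1.63), PKM (1.59), ALDOC (1.58), PGK1 (1.55), ENO3 (1.52), PGAM1 (1.32) and TPI1 (1.04), and the 9 SLC2A3 (-4.48), SLC2A1 (-4.32), PKLR (-3.83), PCK2 (-2.83), EGLN3 (-2.03), HK2 (-1.39), PCK1 (-1.35), PFKFB4 (-1.33) and CA9 (-1.20), all from 1 library of HepG2S1 and without a test. Against either HepG2 library alone, CA9 was at -1.60 or -0.65, PFKFB4 at -1.73 or -0.78, EGLN3 at -2.50 or -1.33, ENO3 at 1.00 or 2.35 and ALDOC at 0.98 or 2.63, and the counts were 13 higher and 7 lower without HepG2 replicate 1 and 12 and 9 without replicate 2. HepG2S3 had 14 of 33 higher and 7 lower, beside 28% and 18% of genes. The median of all genes was shifted by 0.29 in each of these pairs, and with TMM library sizes, which put it at -0.05 and 0.02, the members' counts became 11 and 9 in HepG2S1, beside 19.8% and 23.9% of genes, and 12 and 8 in HepG2S3, beside 22.7% and 22.2%. PancB1Q held 4 of 31 members higher and 4 lower (6.72% and 9.41% of genes), and PancB1V 2 and 2 of 31 (9.67% and 7.29%). For HCC4006ER 1 of 32 was higher and 9 lower, with 13.6% and 10.7% of genes, and for HCC4006GR 4 of 32 were higher and 2 lower, with 7.99% and 8.04%. HCC827GR had 2 of 30 higher and 1 lower (11.3% and 7.94%). U10 had 2 of 30 higher and 1 lower (6.59% and 5.6%), and U100 had 1 of 29 higher and 0 lower (7.13% and 1.93%). IGROV-1/CDDP had 0 of 28 higher and 14 lower, beside 5.84% and 7.7% of all genes, and 12 lower with TMM library sizes, beside 6.51% of genes lower. The markers named above also differ in this pair, and their part in the members' values was not tested. In IGROV-1/CDDP 26 of 28 members were below the parental line and 2, LDHB and PCK2, above it (3 with TMM, LDHA among them), with a median change of -1.0 over the members and -0.05 over all genes. The 3 lowest were PFKFB4, NDRG1 and ENO2, and each of the 28 changes lay beyond counting error, but the pair has 1 library a line, so a test of the line was not run. Over the 10 pairs, some of which share a parental line, 0 members kept a single direction in 9 or more.

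**Figure D5:**
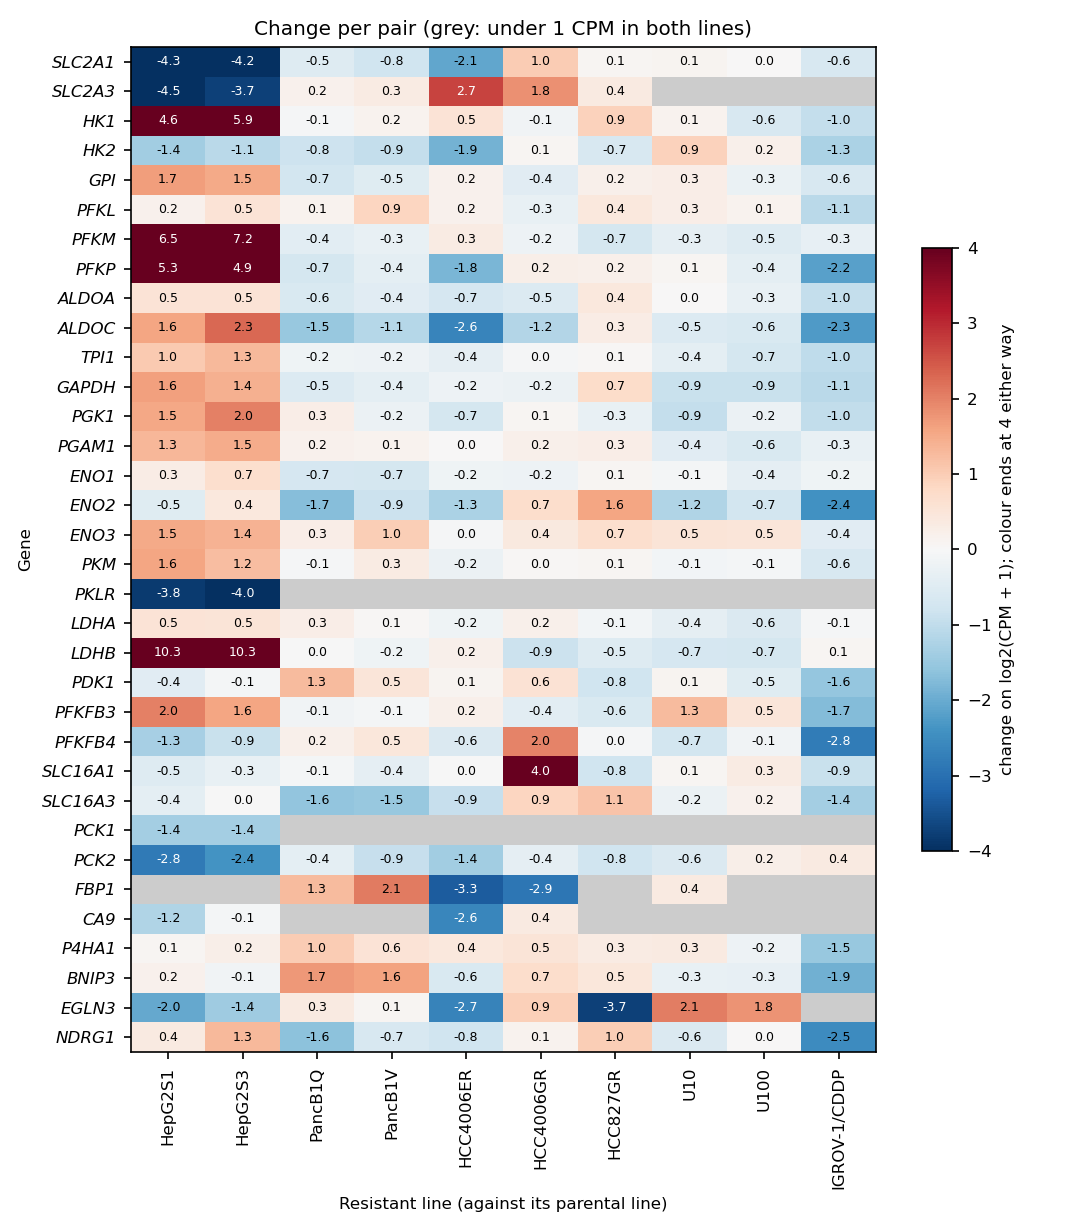
Change of each member per pair on log2(CPM + 1), resistant minus parental line, for the 10 pairs. In IGROV-1/CDDP 14 of 28 members are lower by more than 1 and 0 are higher by more than 1.

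Other genes around the pathway were taken from lists in the same tests, where 31.8% of all genes were higher and 32.6% lower in HepG2S3, and 24.1% and 24.9% in HCC4006ER. Of 15 further glycolytic and gluconeogenic genes tested in HepG2S3, 6 were higher and 6 lower, with BPGM (2.15) and PGM1 (1.81) highest in log2 fold change. The lowest were SLC2A2, from 38.7 and 47.0 CPM in HepG2 to 0.0779 and 0.0400 CPM, and G6PC1, from 1.87 and 3.41 to 0.0390 and 0.0800 CPM, both at 1 or 2 counts per HepG2S3 library. In HCC4006ER 1 of 9 was higher, HKDC1 (3.72), and 6 were lower, led by PFKFB2 (-1.53) and SLC37A4 (-1.42). Of 10 regulators of gluconeogenesis and of hepatic glycolysis, 9 were lower in HepG2S3 and NR3C1 (0.44) was higher. The lowest were FOXA2, from 52.5 and 46.6 CPM in HepG2 to 0.0779 and 0 CPM, and GCKR, from 23.9 and 21.8 to 0.0390 and 0.0400 CPM. In HCC4006ER 2 of 6 were higher, NR3C1 (0.36) and PPARGC1A, which had 0 counts in HCC4006P1 and stood at 3.96 and 2.55 CPM, and FOXA2 was lower, from 7.79 and 9.68 CPM in HCC4006P1 to 0.126 and 0.127 CPM, which is 2 counts per library. For pyruvate entry into mitochondria, 4 of 12 genes were higher in HepG2S3 and 3 lower, MPC1 (-1.74) and PDHX (-0.79) the lowest. The highest were PDK4, from 0.167 and 0.284 CPM in HepG2 to 196 and 150 CPM in HepG2S3, and PDHA1 (1.63). In HCC4006ER 0 of 7 were higher and 3 lower, with PDHX (-4.14) and PDP2 (-0.94) the lowest. The pentose phosphate genes gave 2 higher, PGLS (1.02) and TALDO1 (0.80), and 3 lower of 8 in HepG2S3, with RPIA (-1.03) and RPE (-0.92) lowest. They gave 1 higher, PGLS (0.82), and 4 lower of 7 in HCC4006ER, with PGD (-0.93) and RPIA (-0.89) lowest. Of 8 HIF pathway regulators tested in HepG2S3, 2 were higher, ARNT (0.76) and HIF1A (0.64), and 4 lower. The lowest were ARNT2, from 7.46 and 6.11 CPM in HepG2 to 0.156 and 0.120 CPM, and HIF3A, from 1.44 and 2.38 to 0.117 and 0.280 CPM. In HCC4006ER 1 of 7 was higher, ARNT2 (5.74), and 2 lower, HIF1A (-1.55) and EPAS1 (-1.21). Of 20 further HIF target genes, 8 were higher and 7 lower in HepG2S3, from CA12 (3.10) and PPFIA4 (0.0669 and 0 CPM in HepG2, 2.57 and 3.08 CPM in HepG2S3) to INSIG2 (-2.79). In HCC4006ER 6 of 17 were higher, STC2 (1.66) and VEGFA (1.21) the highest, and 7 lower, ANGPTL4 (-2.45) and BHLHE40 (-1.83) the lowest. In IGROV-1/CDDP, where P4HA1, BNIP3 and NDRG1 were lower, 0 of 19 of these target genes were higher and 7 lower by more than 1, beside 5.84% and 7.7% of all genes, with a median change of -0.90. The same list had 9 of 20 higher and 0 lower in HCC4006GR (median 0.71), where markers differ as given above, beside 7.99% and 8.04% of genes, and the other glycolytic and gluconeogenic genes had 1 of 12 higher and 0 lower in IGROV-1/CDDP (median -0.10).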

How the data were processed

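RNA was sequenced from 21 libraries of 17 cell lines. The authors deposited HTSeq counts per gene, unnormalised, from reads mapped to hg19 with Bowtie and TopHat, versions not stated. Symbols and positions came from a GENCODE annotation on GRCh37. CPM were taken over genes outside the stretch nearly without counts in HCC4006P1 replicate 1, and replicates were averaged. edgeR 4.0.16 (TMM, filterByExpr, quasi-likelihood test, two-sided, Benjamini-Hochberg over all genes tested, adjusted p under 0.05) was run in R 4.3.3, without the stretch in the HCC4006 pair. Each SE given is the size of the log2 fold change divided by the square root of the test's F statistic. For the 7 parental lines HCC4006P1 replicate 1 was left out. Isozyme ratios used a pseudocount of 1 CPM. Alternatives used DESeq2 1.42.0, library totals, no filter, a replicate block, each replicate left out, other pseudocounts and scalings. Added after seeing the data were HCC4006P1 by its second library alone, exon-union lengths, shares without the HepG2 family, each parental line left out and the interaction. Python 3.11.15, pandas 2.3.3 and scipy 1.17.1 were used. edgeR's fits of the 2 replicated pairs and of the 7 parents, there with 1 library for each side, were tried on simulated counts. These had the same spread in parental and resistant lines, unlike the data, and the interaction was not simulated. Members and lists were chosen with earlier results of these data known. Values in every library are given for isozyme ratios spanning over 3, the 6 highest and 6 lowest called members per edgeR comparison, the 3 highest and 3 lowest beyond 1 per pair without replicates, members with a single direction in 9 or more pairs, and PCK1, PCK2 and FBP1. The others are given by range.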

Additional observations from a re-analysis of the deposited data

Results flagged for a closer look

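Differences between the HCC4006 and HepG2 pairs were tested as an interaction in edgeR's quasi-likelihood fit of both pairs, in log2 fold change, with Benjamini-Hochberg adjusted p over 14479 genes. The change of LDHB from parent to resistant line differed between the pairs, HCC4006ER minus HepG2S3, by -12.31 (adjusted p 4.5e-08). The size of that difference rests on LDHB values near the floor in HepG2. For PFKM the same difference was -7.21 (adjusted p 6.0e-08). PFKP gave a difference of -6.58 (adjusted p 4.2e-06), falling in HCC4006ER and rising in HepG2S3. HK1 rose in both pairs, and its changes differed by -5.41 (adjusted p 9.8e-07). ALDOC moved in opposite directions, a difference of -4.97 (adjusted p 2.9e-04). A difference of -1.53 (adjusted p 0.00221) was found for ENO2. TPI1 fell in HCC4006ER and rose in HepG2S3, with -1.45 (adjusted p 5.0e-04). GAPDH differed by -1.41 (adjusted p 0.00139). PGAM1 had -1.29 (adjusted p 0.00299) by this test. In PKM the pairs stood apart by -1.28 (adjusted p 0.00357). PFKFB3 showed -1.25 (adjusted p 5.1e-04) between the pairs. GPI came to -1.16 (adjusted p 0.00124) on the log2 scale. ALDOA reached -1.0 (adjusted p 0.0122). HK2 fell in both pairs, by more in HCC4006ER, with -0.64 (adjusted p 0.0428). PCK2 fell in both pairs, by less in HCC4006ER, with 1.19 (adjusted p 0.00922). SLC2A1 likewise fell by less in HCC4006ER, a difference of 2.31 (adjusted p 7.5e-05). SLC2A3 rose in HCC4006ER and fell in HepG2S3, which differs by 7.22 (adjusted p 4.3e-07). Of all genes in this test 4006 were higher and 4088 lower in the HCC4006 pair, and drug, tissue and line cannot be told apart between the pairs.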

How the results depend on the processing

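The directions of called members were followed under each alternative, and those of members not called were not. Of the 23 members called in HepG2S3 against HepG2, between 19 and 23 kept their call over the alternatives and 0 reversed. BNIP3, PFKFB4, SLC16A1 and EGLN3 were the ones lost. With library totals in place of TMM, 17 members were higher and 7 lower, and over all genes 6412 were higher and 4065 lower, against 5017 and 5148. With the replicate block, 14 members were higher and 9 lower, beside 4944 and 4964 of all genes. Leaving out each library in turn gave 6939 to 12577 genes called. In HCC4006ER against HCC4006P1 with 14 members called, the replicate block gave 3 higher and 13 lower, beside 3873 and 3914 of all genes. Leaving out each library gave 4046 to 8370 genes (6266 with all libraries, 4046 without HCC4006ER replicate 1), where the lone library of a line is assumed to vary like the others. With all genes kept, 3440 genes and 10 members were called, and the replicate block with all genes kept called 0 members and 0 genes. HCC4006P1 by its second library alone gave 25 members and 9855 genes. Over 7 parental lines, DESeq2 called 113 genes against 0. Without the HepG2 family the mean log2 ratio reversed from 0.09 to -0.70 for PFKP to PFKL, from 0.70 to -0.26 for PFKM to PFKL, from 1.19 to -0.24 for LDHB to LDHA and from -0.37 to 0.04 for PFKFB4 to PFKFB3. Leaving out each other parental line in turn kept the sign of all 9 means, and SLC2A3 to SLC2A1 gave 0.42 without HCC4006P1 against 1.04. With a pseudocount of 0.1 CPM, U100 had 2 members beyond 1 against 1. The cause of these differences was not tested. Depth limits PCK1, PKLR and CA9, which had under 3 counts in many libraries. FBP1 had under 3 counts in HepG2 replicate 1, HCC827GR, IGROV-1 and IGROV-1/CDDP. Lines with a single library give no spread between cultures.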
